A study of Mus musculus with 192 samples.

Results

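The enzymes followed were those of the pentose phosphate pathway and the cytosolic enzymes that make NADPH beside it, namely Me1, G6pdx, Pgd, Pgls, Rpia, Taldo1, Tkt and Idh1. They were found by gene symbol and are 8 of the 54752 genes in the table. Their expression was measured by RNA sequencing in 9 tissues of WT and Nrf2-KO mice that were flown to the International Space Station for about a month (FL_WT, FL_KO) or kept on the ground in a later simulation of the flight (GC_WT, GC_KO). They covered bone of the temporal region (TpB) and of the mandible (MdB), white (eWAT) and brown adipose tissue (iBAT), the lymphoid organs spleen (Spl) and thymus (Thy), and liver (Liv), kidney (Kid) and cerebrum (Cbr). All mice were male, 12 weeks old and of strain C57BL/6 by their labels, of C57BL/6J background by the methods of the study, and were housed individually in both arms. By those methods, flight mice had reached 12 weeks before launch, so that they were older at dissection. Nrf2-KO mice lack functional Nrf2, encoded by Nfe2l2, in every cell, and Nrf2-KO mice with a hepatic shunt had been screened out before the flight. Each group held 6 mice, with 3 in MdB and Kid. Flight Nrf2-KO mouse 04 had an intestinal hemorrhage and was left out, so that FL_KO held 5 mice, 2 in MdB and 3 in Kid, and 184 of 192 samples were used.

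Glucose 6-phosphate enters the oxidative branch of the pentose phosphate pathway through G6pdx (glucose 6-phosphate dehydrogenase), Pgls (6-phosphogluconolactonase) and Pgd (6-phosphogluconate dehydrogenase), and the dehydrogenases of this branch reduce NADP to NADPH. Rpia (ribose 5-phosphate isomerase), Taldo1 (transaldolase) and Tkt (transketolase) belong to the branch that interconverts sugar phosphates and returns carbon to glycolysis. Me1 (cytosolic malic enzyme) and Idh1 (cytosolic isocitrate dehydrogenase) make NADPH outside the pathway. NADPH is used for fatty acid synthesis, to which adipose tissue and liver give much of it, and for the reduction of glutathione and thioredoxin. Nrf2 is a transcription factor that binds antioxidant response elements, and several of these enzymes are known Nrf2 targets. Me1, Taldo1 and Tkt stand in the list of Nrf2 target genes that the study itself drew up.

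All 8 enzymes have a promoter in the RefSeq table for GRCm38.p6, and 3 of these are shown as examples. Me1 and Tkt were lower in liver and kidney of Nrf2-KO mice and G6pdx was lower in kidney. Pgd was also lower in kidney but is not shown, and its starts are described below. The letters run 5′ to 3′ on the strand of the gene and end at or just past the start site, and capitals mark a match to the core of the antioxidant response element, TGACNNNGC, on either strand. The Me1 stretch lies at chr9:86695912-86696164 on the minus strand, the G6pdx stretch at chrX:74428881-74429130 on the minus strand and the Tkt stretch at chr14:30548881-30549130 on the plus strand.
Me1: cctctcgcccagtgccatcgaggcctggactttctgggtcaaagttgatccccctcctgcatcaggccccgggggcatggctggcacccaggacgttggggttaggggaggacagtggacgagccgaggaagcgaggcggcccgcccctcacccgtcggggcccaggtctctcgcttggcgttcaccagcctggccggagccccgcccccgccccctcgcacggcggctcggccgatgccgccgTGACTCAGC
G6pdx: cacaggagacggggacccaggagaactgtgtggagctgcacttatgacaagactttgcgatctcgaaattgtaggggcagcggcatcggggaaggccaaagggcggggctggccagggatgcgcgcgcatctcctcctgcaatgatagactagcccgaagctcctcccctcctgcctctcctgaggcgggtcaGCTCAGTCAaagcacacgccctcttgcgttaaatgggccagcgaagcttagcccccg
Tkt: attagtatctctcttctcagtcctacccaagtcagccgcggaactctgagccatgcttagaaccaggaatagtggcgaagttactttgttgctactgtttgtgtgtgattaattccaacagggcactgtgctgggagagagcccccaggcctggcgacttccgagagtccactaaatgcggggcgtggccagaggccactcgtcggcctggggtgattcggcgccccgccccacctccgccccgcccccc

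The match of Me1, TGACTCAGC, began 6 bases before the start site, and that of G6pdx began 57 bases before it and reads GCTCAGTCA on this strand. A second start of Pgd held TGACATTGC from 4 bases after it. No match was found in the window from 250 bases before to 50 bases after the start for the other 5 genes, nor at the other annotated starts of Me1 and Pgd. Of all 32817 promoters in the table, 12.4% held this core. The E-box CACGTG (7.15% of promoters) and the sterol response element TCACNCCAC (1.24% of promoters) matched in none of the 8 genes. No overlap with another motif was scored, and a match says only that these letters are present.

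Libraries held 12954949 to 16308175 reads assigned to genes, and 8007523 to 10564704 in Thy, which was made from rRNA-depleted RNA while the other tissues were made from poly(A) RNA. The labels were checked first. Nfe2l2 in Nrf2-KO mice stood at 28.2% to 81.9% of the WT level, and the mice of both genotypes did not overlap in any of the 9 tissues. Nqo1, an Nrf2 target, separated the genotypes without overlap in 2 tissues, Liv and Kid. Of 27 tissue markers, those of Liv, Kid, Spl, Thy, eWAT and Cbr were highest in the labelled tissue, Adipoq was higher in eWAT than in iBAT, and the bone markers were higher in MdB than in TpB. In iBAT, FL_WT mice 06 and 08 and FL_KO mouse 11 stood apart, with summed TPM of 8 skeletal muscle markers of 6595, 3196 and 8107 against at most 69.2 in the other mice. TPM is the share of a library's transcripts scaled to a fixed sum, which corrects for gene length and allows levels of different genes to be compared. Nothing in the labels says how the mice of a group were matched in litter or cage, and p-values measure the spread between these mice.

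Each tissue was tested by itself with edgeR (quasi-likelihood) and differences were called at a Benjamini-Hochberg adjusted p under 0.05 over all genes of the tissue. All 8 enzymes passed the filter on low counts in all 9 tissues, which gives 72 pairs of enzyme and tissue in each comparison. Between FL_WT and GC_WT, 1 pair was higher and 10 were lower, and between FL_KO and GC_KO, 1 was higher and 14 were lower. By tissue, these flight comparisons called 0% to 22.8% and 0% to 38.2% of all genes. Between GC_KO and GC_WT, 3 pairs were higher and 6 lower, and between FL_KO and FL_WT, 2 were higher and 7 lower. By tissue, these genotype comparisons called 0.198% to 3.81% and 0.203% to 3.65% of all genes. No pair passed the test of the interaction, the difference between the flight responses of Nrf2-KO and WT mice, where 8 of 72 had an unadjusted p under 0.05. The share of all genes called gives the background in tissues where no or few pairs were called. In TpB and MdB it was 0% in both flight comparisons, 0.198% and 0.244% between GC_KO and GC_WT, and 0.203% and 0.208% between FL_KO and FL_WT, and no enzyme was called there. In Spl it was 2.26% and 0.668% for flight in WT and Nrf2-KO mice and 1.13% and 1.16% for genotype on the ground and after flight, again with no enzyme called by edgeR. Taldo1 in Spl was nearest, at -0.17 between FL_KO and FL_WT, and was called by DESeq2 (adjusted p = 0.00867), by limma on log2(TPM + 1) (-0.23, adjusted p = 0.0404), with RLE factors (0.0471), with the mouse number range as a block (0.0250) and without FL_KO mouse 12 (0.0349). In Cbr it was 0.0244% and 0.0061% for flight, and in Kid 0.119% and 0.159%, with no enzyme called for flight in either tissue by edgeR. For flight in Kid of Nrf2-KO mice, DESeq2 called Tkt (-0.31, adjusted p = 0.0327), and edgeR called Idh1 without FL_KO mouse 11 (-0.54, adjusted p = 0.0203). The interaction called 0% of all genes in every tissue.

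The scale changed part of the flight counts. On TPM the median of all genes moved by 0.309 and 0.434 (log2) in iBAT of WT and Nrf2-KO flight mice, by 0.192 and 0.104 in TpB, by 0.181 and 0.164 in Thy and by 0.153 in Liv of Nrf2-KO mice. In Thy it moved by -0.113 and -0.112 for genotype on the ground and after flight, and in iBAT by 0.114 for the interaction. With limma on log2(TPM + 1), flight called 5 higher and 7 lower in WT mice and, in Nrf2-KO mice, 5 higher and 9 lower. The changes given are those of the edgeR fit, which scales by TMM, and TPM is used for levels.

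Levels in GC_WT mice differed widely between tissues, and the adipose tissues held the most of 5 of the 8 enzymes. Since Thy alone was made from rRNA-depleted RNA, its place in these orders may also hold the difference in preparation. Me1 was highest in eWAT at 287 ± 65.3 TPM (SD, n = 6), Kid at 258 ± 19.0 (n = 3) and iBAT at 225 ± 37.1 (n = 6), then Liv at 79.5, MdB at 74.9, TpB at 50.8, Cbr at 35.2, Spl at 5.48 and Thy at 4.67 TPM. Mice of eWAT and Kid, of Kid and iBAT, of Liv and MdB, and of Spl and Thy overlapped. G6pdx, the entry enzyme of the oxidative branch, was also highest in eWAT at 183 ± 26.5 TPM, followed by iBAT at 98.4, MdB at 53.9, TpB at 47.5, Spl at 46.6, Cbr at 28.9, Kid at 17.7, Thy at 15.1 and Liv at 1.88 TPM. The level of G6pdx in eWAT was 97.1 times that in Liv, the widest span among the 8 enzymes. Neighbours overlapped only among MdB, TpB and Spl and between Kid and Thy.

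Pgd stood at 248 ± 46.4 TPM in eWAT and 198 ± 52.5 in iBAT, which overlapped, then at 82.5 in Spl, 72.8 in TpB, 71.7 in Kid, 64.0 in MdB, 28.7 in Cbr, 17.2 in Liv and 13.3 in Thy. TpB, Kid and MdB were not separated in neighbouring pairs, nor were Liv and Thy. Pgls, the lactonase between both dehydrogenases, was the most even, from 135 TPM in Spl to 29.7 in Cbr, a span of 4.53 times, and each neighbour except Thy and Cbr overlapped. Rpia was the lowest of the 6 pathway enzymes in each tissue except Liv, with 37.5 TPM in Spl, 26.8 in MdB, 24.9 in TpB, 16.6 in eWAT, 12.3 in Thy, 10.9 in Kid, 9.81 in iBAT, 8.14 in Cbr and 1.91 in Liv. Spl and Liv were the tissues that stood clear of their neighbours for Rpia.

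Taldo1 and Tkt, the carbon-shuffling enzymes, peaked in iBAT. Taldo1 stood at 506 ± 47.2 TPM in iBAT and 433 ± 55.6 in eWAT, which overlapped, followed by 221 in Spl, 188 in Kid, 184 in TpB, 101 in Cbr, 95.8 in MdB, 88.6 in Thy and 78.9 in Liv. Kid and TpB overlapped, as did each neighbour from Cbr down to Liv. Tkt reached 908 ± 177 TPM in iBAT, the highest mean of the 8 enzymes over the 9 tissues of GC_WT mice, and 403 ± 73.8 in eWAT, without overlap. It stood at 142 in TpB, 137 in Spl, 108 in Cbr, 104 in MdB, 96.9 in Kid, 64.4 in Thy and 58.3 in Liv, where TpB and Spl, Cbr and MdB, MdB and Kid, and Thy and Liv overlapped. Idh1 followed another order, led by Kid at 221 TPM, Liv at 204 and eWAT at 181, then iBAT at 89.4, MdB at 65.5, Spl at 39.0, TpB at 34.9, Cbr at 28.3 and Thy at 14.7. Kid and Liv, Liv and eWAT, Spl and TpB, and TpB and Cbr overlapped for Idh1. Liver held little of the dehydrogenases of the pathway and much Idh1.

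**Figure D1:**
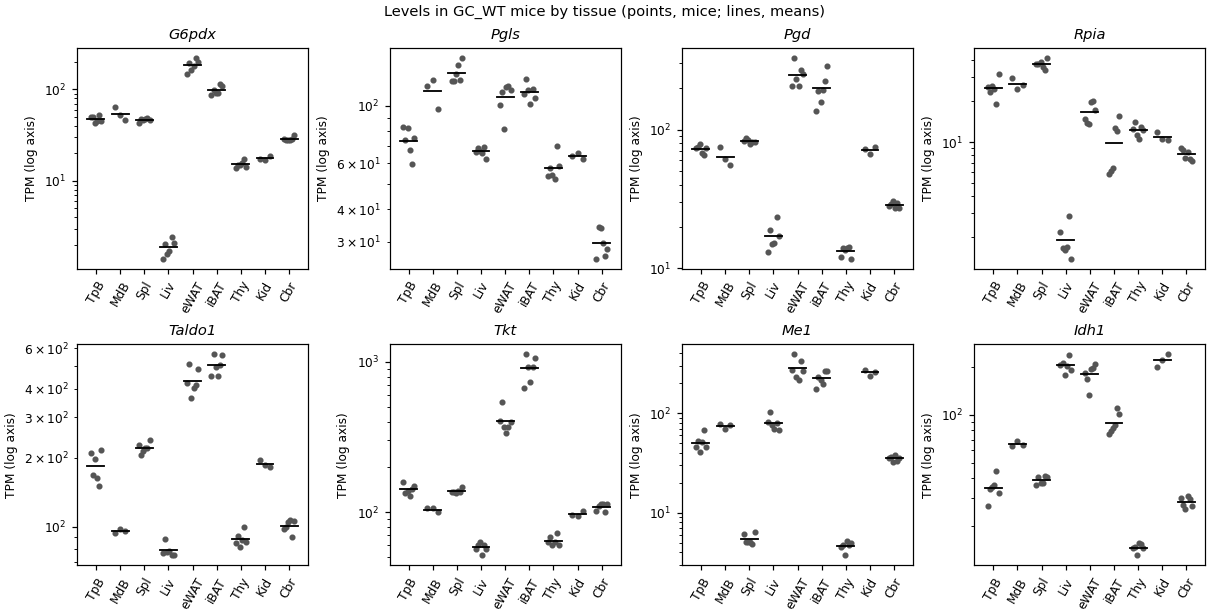
TPM of the 8 enzymes in the 9 tissues of GC_WT mice, on a log axis, where points are mice and lines are means. Tkt in iBAT (mean 908 TPM) is the highest level and G6pdx in Liv (1.88 TPM) the lowest, while Idh1 is high in Kid and Liv, where G6pdx is low.

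Across the 9 tissues, log2(mean TPM + 1) of Taldo1 and Tkt went together with a Pearson r of 0.921, and that of Pgd and Taldo1 with an r of 0.920, while G6pdx and Idh1 had an r of -0.075. These are descriptions over 9 tissues from the same mice, of which Thy was prepared in another way. Among 17212 genes with a mean of at least 5 TPM in a tissue, the patterns most like Idh1 were those of Aco1 (r = 0.9845), the cytosolic aconitase, and Csad (0.9749). The pattern most like Tkt was that of Atpaf2 (0.9915), and most like Pgd that of Slc25a35 (0.9678). For Taldo1 it was Hoxa4 (0.9534), for G6pdx Rhoq (0.9382), for Rpia Necap2 (0.9630) and for Pgls Prickle3 (0.9225). The gene most like Me1 was Gm7329 (0.9940), which shares sequence with Me1.

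The files could split reads between such copies. Of the words of 76 bases, the read length, in the transcripts of Me1, 16.2% also occurred in Gm7329 or Gm7049, and Gm7329 was listed at 290 TPM in eWAT and 261 TPM in Kid of GC_WT mice. Pgls shared 18% of its words with Fam129c on the same strand, Rpia 1.97%, G6pdx 1.49% with G6pd2 and Taldo1 0.685%, while Pgd, Tkt and Idh1 shared 0%. G6pdx at chrX:74409483-74429194 lies wholly within Ikbkg on the opposite strand, and the strand setting of the counting was not given in the sources used here. The other genes lie at chr9:86581371-86695953 (Me1), chr4:149149991-149166771 (Pgd), chr8:71592176-71601092 (Pgls), chr6:70765720-70792232 (Rpia), chr7:141392199-141402968 (Taldo1), chr14:30548359-30574720 (Tkt) and chr1:65158616-65186500 (Idh1) on GRCm38.

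To ask how flight changed these enzymes, FL mice were compared with GC mice of the same genotype. Flown mice were dissected in the USA after landing, transport and behavioral tests, and the ground experiment ran months later in Japan. The comparison therefore holds return, place and date along with flight. In iBAT most of the pathway fell in both genotypes. Between FL_WT and GC_WT, 6 of the 8 enzymes fell and none rose, with a median of -0.86 (log2) over the 8, where 19.2% of all genes were called. Between FL_KO and GC_KO, 7 of 8 fell, with a median of -1.33, where 33.5% of all genes were called. The summed TPM of the 8 enzymes was 2147 ± 310 in GC_WT and 1314 ± 106 in FL_WT (SD, n = 6 each), and 2562 ± 170 in GC_KO (n = 6) and 1182 ± 52.6 in FL_KO (n = 5). In bulk tissue, fewer cells of a type and less RNA per cell cannot be told apart.

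Me1 in iBAT ranged from 174 to 268 TPM in GC_WT (median 222) and from 81.2 to 107 in FL_WT (median 93.3). It ranged from 183 to 306 in GC_KO (median 228), and FL_KO mice stood at 66.0, 60.2, 75.6, 79.4 and 80.7 TPM. Every flown mouse was below every ground mouse of its genotype. The log2 fold change was -2.18 (SE 0.121, edgeR adjusted p = 1.41e-10) in Nrf2-KO mice and -1.56 (SE 0.111) in WT mice, and Gm7329 stood at 210 in GC_WT, 75.3 in FL_WT, 209 in GC_KO and 58.6 TPM in FL_KO.

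Of the dehydrogenases of the oxidative branch, Pgd ranged from 137 to 286 TPM in GC_WT (median 193) and from 90.1 to 107 in FL_WT (median 91.5). It ranged from 208 to 355 in GC_KO (median 274), while FL_KO mice stood at 57.1, 51.3, 91.5, 93.3 and 94.0 TPM. No flown mouse reached a ground mouse, and Pgd fell by 1.36 on the log2 scale (SE 0.154, edgeR adjusted p = 3.12e-06) in WT and by 2.33 (SE 0.170, adjusted p = 2.05e-09) in Nrf2-KO mice. G6pdx ranged from 85.8 to 115 TPM in GC_WT (median 94.5), from 56.0 to 82.2 in FL_WT (median 66.0) and from 92.3 to 110 in GC_KO (median 96.8). FL_KO mice stood at 37.8, 31.6, 66.7, 66.7 and 76.5 TPM for G6pdx, with FL_KO mice 01 and 02 the lowest for both dehydrogenases. The groups did not overlap, and G6pdx fell by 0.85 (SE 0.132, edgeR adjusted p = 0.000114) in WT and by 1.28 (SE 0.142, adjusted p = 5.96e-07) in Nrf2-KO mice on the log2 scale. Pgls was not called, with log2 fold changes of -0.17 (adjusted p = 0.220) and -0.14 (adjusted p = 0.311). With limma on log2(TPM + 1), Pgls was at 0.14 in WT mice (adjusted p = 0.0807) and was called higher in Nrf2-KO mice (0.27, adjusted p = 0.00175), the opposite direction.

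In the non-oxidative branch, Tkt ranged from 673 to 1123 TPM in GC_WT (median 924) and from 406 to 648 in FL_WT (median 452). It ranged from 1041 to 1249 in GC_KO (median 1167), against 581, 462, 434, 398 and 403 TPM in FL_KO. Taldo1 ranged from 541 to 595 TPM in GC_KO (median 565), against 299, 292, 309, 291 and 282 in FL_KO. Neither enzyme overlapped between flown and ground mice of either genotype. In Nrf2-KO mice Tkt fell by 1.76 (SE 0.162, edgeR adjusted p = 5.03e-08) and Taldo1 by 1.38 (SE 0.0900, adjusted p = 6.59e-10) on the log2 scale, and in WT mice by 1.18 (SE 0.149) and 0.86 (SE 0.0838). Rpia ranged from 9.78 to 23.7 TPM in GC_KO (median 14.2) and stood at 5.97, 7.76, 12.0, 12.8 and 14.3 in FL_KO, which overlapped, and its log2 fold change was -0.98 (SE 0.265, edgeR adjusted p = 0.00701). In WT mice Rpia was at -0.42 (adjusted p = 0.260) and was not called.

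Idh1 was called lower in iBAT in both genotypes, but by little. The log2 fold changes were -0.34 (SE 0.0808, edgeR adjusted p = 0.00535) and -0.46 (SE 0.0852, adjusted p = 0.000301). On the TPM scale Idh1 stood at 89.4 in GC_WT and 87.2 in FL_WT, and at 97.7 in GC_KO and 97.2 in FL_KO, and with limma on log2(TPM + 1) its change was -0.03 in both genotypes (adjusted p = 0.845 and 0.830). Rpia in Nrf2-KO mice was also not called on that scale (-0.46, adjusted p = 0.117).

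**Figure D2:**
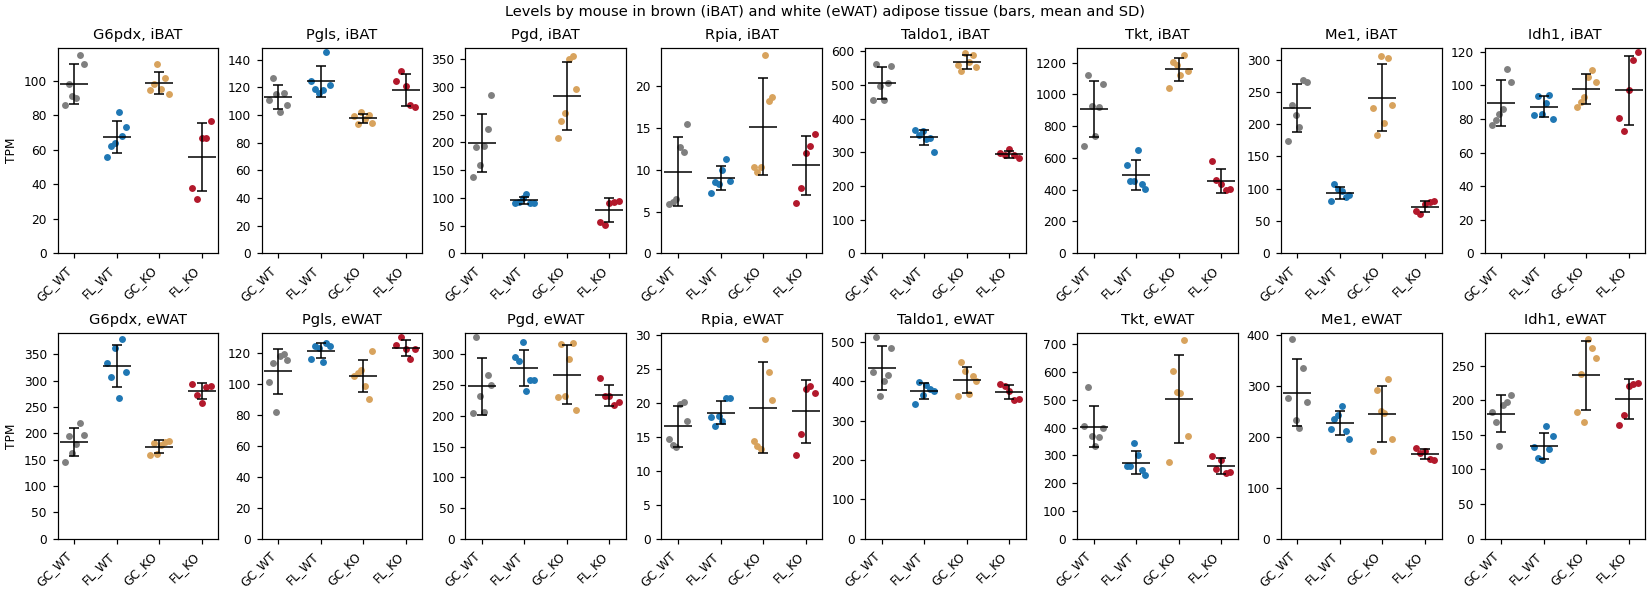
TPM of the enzymes in iBAT and eWAT of the 4 groups, where points are mice and bars are the mean and SD. In iBAT every flown mouse lies below every ground mouse of its genotype for Me1, G6pdx, Pgd, Taldo1 and Tkt, and in eWAT every flown mouse lies above every ground mouse of its genotype for G6pdx.

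Erythroid markers were called lower with flight in iBAT, and sums of adipocyte and macrophage markers are given beside them. No sum was tested. Their sums are on the TPM scale, on which the median of all genes rose by 0.309 in WT and 0.434 in Nrf2-KO mice (log2). The summed TPM of 7 erythroid markers was 604 to 1091 in GC_WT and 336 to 537 in FL_WT, and 481 to 1000 in GC_KO and 400 to 610 in FL_KO, and all 5 of those that passed the filter were called lower in both genotypes. That of 5 adipocyte markers was 1880 to 2792 in GC_WT, 2435 to 3781 in FL_WT, 1616 to 1948 in GC_KO and 2351 to 2636 in FL_KO. That of 5 macrophage markers was 4.27 to 12.6 in GC_WT, 8.13 to 22.1 in FL_WT, 4.51 to 7.63 in GC_KO and 9.20 to 30.2 in FL_KO. None of these 3 lists had a marker at 0 in every mouse of a group. Of the 8 muscle markers, 7 were called higher in both genotypes. Their summed TPM had medians of 2.04 in GC_WT, 16.5 in FL_WT, 1.19 in GC_KO and 2.20 in FL_KO. The highest sums were those of FL_WT mice 06 and 08 and FL_KO mouse 11, at 6595, 3196 and 8107 TPM. Without those 3 libraries, chosen after the values had been seen, each of the 13 flight calls in iBAT held, with log2 fold changes of -1.57 for Me1, -1.37 for Pgd, -1.12 for Tkt, -0.89 for Taldo1 and -0.84 for G6pdx in WT mice, and -2.19, -2.37, -1.69, -1.34 and -1.33 in Nrf2-KO mice. The part of the erythroid, adipocyte and macrophage levels in these falls was not tested.

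In eWAT the entry enzyme moved the other way. G6pdx ranged from 146 to 220 TPM in GC_WT (median 186) and from 266 to 378 in FL_WT (median 325). It ranged from 158 to 186 in GC_KO (median 179), and FL_KO mice stood at 294, 272, 258, 288 and 290 TPM. Every flown mouse was above every ground mouse of its genotype. G6pdx rose by 0.74 on the log2 scale (SE 0.0950, edgeR adjusted p = 3.75e-05) in WT and by 0.67 (SE 0.0989, adjusted p = 0.000417) in Nrf2-KO mice. Ikbkg, the gene around it, stood at 14.5 in GC_WT, 16.9 in FL_WT, 13.5 in GC_KO and 14.2 TPM in FL_KO.

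Of the 8 enzymes, 4 were called between FL_WT and GC_WT in eWAT, where 13.4% of all genes were called, and 3 between FL_KO and GC_KO, where 7.71% were called. Tkt ranged from 334 to 545 TPM in GC_WT (median 385) and from 229 to 344 in FL_WT (median 261), which overlapped, and its log2 fold change was -0.66 (SE 0.183, edgeR adjusted p = 0.0184). In Nrf2-KO mice it ranged from 277 to 715 in GC_KO (mean 503) against 298, 250, 285, 236 and 240 TPM in FL_KO, a fall by 0.96 (SE 0.195, adjusted p = 0.00465). Idh1 fell in WT mice by 0.53 (SE 0.127, edgeR adjusted p = 0.00696), from 134 to 208 TPM in GC_WT (median 188) to 114 to 163 in FL_WT (median 132). In Nrf2-KO mice Idh1 was at -0.23 (adjusted p = 0.307).

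Smaller calls in eWAT were less stable. Taldo1 in WT mice was at -0.31 (SE 0.0966, edgeR adjusted p = 0.0375), and the call was lost without FL_KO mouse 02 (adjusted p = 0.0576) or 09 (0.0514). Me1 in Nrf2-KO mice ranged from 172 to 313 TPM in GC_KO (median 249) and stood at 177, 168, 172, 156 and 155 in FL_KO. Its log2 fold change was -0.58 (SE 0.166, edgeR adjusted p = 0.0330), and it was not called without FL_KO mouse 02, 09, 11 or 12 (adjusted p = 0.0765, 0.0520, 0.0783 and 0.0807). In WT mice Me1 was at -0.44 (adjusted p = 0.0641). Pgd, which follows G6pdx in the pathway, was at 0.06 (95% interval -0.18 to 0.30) in WT and -0.20 (-0.46 to 0.05) in Nrf2-KO mice and was not called. Summed macrophage markers in eWAT were 188 to 307 TPM in GC_WT, 325 to 654 in FL_WT, 222 to 337 in GC_KO and 233 to 424 in FL_KO, with 3 of 5 called higher in WT and 0 of 5 in Nrf2-KO mice (an unadjusted p under 0.05 in 0), and their part in the rise of G6pdx was not tested.

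In Liv, no enzyme was called between FL_WT and GC_WT, where 3.45% of all genes were called, and 2 of 8 fell between FL_KO and GC_KO, where 3.34% were called. Pgd ranged from 16 to 23.4 TPM in GC_KO (median 18.8), and FL_KO mice stood at 10.2, 10, 11.3, 12.8 and 15.6 TPM, below every GC_KO mouse. It fell by 0.83 on the log2 scale (SE 0.120, edgeR adjusted p = 0.000309). In WT mice Pgd was at -0.38 (SE 0.113, adjusted p = 0.0592), and the interaction was -0.45 (95% interval -0.77 to -0.13, unadjusted p = 0.0121 and not called). Tkt ranged from 38.0 to 50.5 TPM in GC_KO (median 45.6) against 35.7, 36.5, 35.7, 29.3 and 41.2 in FL_KO, which overlapped, and fell by 0.48 (SE 0.0961, edgeR adjusted p = 0.00564). On the TPM scale Pgls in Liv of Nrf2-KO mice was called higher (0.26, limma adjusted p = 0.0360). Taldo1 was at -0.28 (edgeR adjusted p = 0.0789) and was called with the mouse number as a block (-0.28, adjusted p = 0.0378). It was also called by DESeq2 (-0.28, adjusted p = 0.0416). With edgeR it was called with flight mouse 04 included (-0.30, adjusted p = 0.0369) and with the mouse number range as a block (-0.27, adjusted p = 0.0446). G6pdx in Liv had at most 81.0 expected reads in a mouse, and its changes of -0.02 (95% interval -0.35 to 0.31) and 0.04 (-0.31 to 0.38) were not detectable at this depth.

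In Thy, 1 of 8 enzymes was called between FL_WT and GC_WT and 3 of 8 between FL_KO and GC_KO, where 22.8% and 38.2% of all genes were called. Taldo1 was at -0.18 (SE 0.0577, edgeR adjusted p = 0.0239) in WT and -0.29 (SE 0.0618, adjusted p = 0.000616) in Nrf2-KO mice, Pgls at -0.35 (SE 0.0770, adjusted p = 0.00101) and G6pdx at -0.15 (SE 0.0586, adjusted p = 0.0437) in Nrf2-KO mice. The mice overlapped in each case, and none of these 4 calls held on the TPM scale, where Taldo1 in WT mice was at 0.05 (adjusted p = 0.649), G6pdx at 0.10 (adjusted p = 0.395), Pgls at -0.09 (adjusted p = 0.443) and Taldo1 in Nrf2-KO mice at -0.03 (adjusted p = 0.785). On that scale Me1 was called higher in Thy of both genotypes (0.34 and 0.43), as was Pgd (0.32 and 0.29), and in WT mice Tkt (0.25, limma adjusted p = 0.0438) and Rpia (0.27, adjusted p = 0.0241) were called higher too. The G6pdx call was also lost without FL_KO mouse 01, 02, 09 or 12 (adjusted p = 0.165, 0.0687, 0.0631 and 0.0631).

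Markers of other cells moved with flight in Thy as well. Their sums are on the TPM scale, on which the median of all genes rose there by 0.181 in WT and 0.164 in Nrf2-KO mice (log2). The summed TPM of 5 macrophage markers was 43.9 to 58.9 in GC_WT and 54.5 to 104 in FL_WT, with 1 of 5 called higher, and 34.5 to 51.0 in GC_KO and 60.7 to 77.1 in FL_KO, without overlap and with 5 of 5 called higher. That of 4 proliferation markers was 359 to 487 in GC_WT and 267 to 425 in FL_WT, and 317 to 485 in GC_KO and 287 to 332 in FL_KO, with 4 of 4 called lower in both genotypes. Neither list had a marker at 0 in every mouse of a group, and their part in the changes of the enzymes in Thy was not tested.

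**Figure D3:**
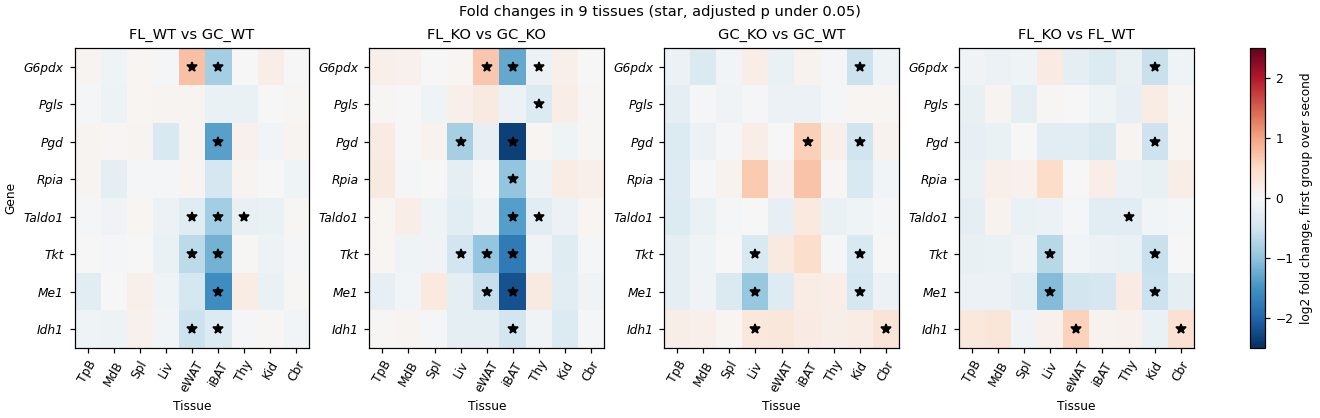
Log2 fold changes of the 8 enzymes in the 9 tissues for both flight and both genotype comparisons from edgeR, where colour is the log2 fold change of the first group over the second and stars mark an adjusted p under 0.05. Most flight calls were in iBAT and eWAT (10 of 11 in WT and 10 of 15 in Nrf2-KO mice), and most genotype calls in Kid and Liv (7 of 9 on the ground and 6 of 9 after flight). Of all genes, flight called 19.2% and 33.5% in iBAT, 13.4% and 7.71% in eWAT and 22.8% and 38.2% in Thy. Genotype called 1.61% and 1.83% in Kid and 2.64% and 3.65% in Liv.

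The response of Nrf2-KO mice was compared with that of WT mice by the interaction. In iBAT it was -0.97 for Pgd (95% interval -1.40 to -0.54, edgeR adjusted p = 0.0926), -0.51 for Taldo1 (-0.75 to -0.28, adjusted p = 0.106), -0.62 for Me1 (-0.93 to -0.31, adjusted p = 0.148), -0.58 for Tkt (-1.0 to -0.16, adjusted p = 0.408) and -0.44 for G6pdx (-0.81 to -0.06, adjusted p = 0.536). None was called by edgeR with the 4 groups alone in the fit, nor by limma. With the mouse number range as a block, edgeR called Pgd (-1.03, adjusted p = 0.0135) and Taldo1 (-0.50, adjusted p = 0.0445). DESeq2 called 3, namely Pgd (adjusted p = 0.00291), Taldo1 (0.00545) and Me1 (0.0127). In eWAT and Kid no interaction of an enzyme had an unadjusted p under 0.05.

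To ask which enzymes differed with genotype, Nrf2-KO mice were compared with WT mice within each condition. In Kid, Me1, G6pdx, Pgd and Tkt of Nrf2-KO mice were lower both on the ground and after flight, 4 of 8 in each comparison, where 1.61% and 1.83% of all genes were called. Both comparisons use different mice. G6pdx in Kid stood at 17.4, 17 and 18.6 TPM in GC_WT and at 13.1, 11.2 and 12.9 in GC_KO. After flight it stood at 20.3, 22.4 and 19.6 in FL_WT and at 14.2, 13.1 and 15.5 in FL_KO. The genotypes did not overlap in either condition, with log2 fold changes of -0.53 (SE 0.0796, edgeR adjusted p = 0.00284) and -0.55 (SE 0.0787, adjusted p = 0.00171).

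Pgd in Kid stood at 72.7, 67.2 and 75.1 TPM in GC_WT and at 50.6, 50.4 and 53.6 in GC_KO. It stood at 71.7, 75.4 and 69.0 in FL_WT and at 48.7, 47.7 and 55.4 in FL_KO. These changes were -0.49 (SE 0.0660, edgeR adjusted p = 0.00126) and -0.52 (SE 0.0661, adjusted p = 0.000676), the smallest p of the 8 enzymes in Kid in both conditions. Me1 stood at 275, 237 and 262 TPM in GC_WT, at 194, 187 and 198 in GC_KO, at 216, 253 and 263 in FL_WT and at 152, 176 and 178 in FL_KO, again without overlap. Its changes were -0.43 (SE 0.0822, edgeR adjusted p = 0.0155) and -0.54 (SE 0.0824, adjusted p = 0.00297). Gm7329 stood at 261, 205, 270 and 168 TPM in the same order of groups. Tkt stood at 95.3, 93.5 and 102 TPM in GC_WT and at 83.0, 74.7 and 68.1 in GC_KO (-0.38, SE 0.0827, edgeR adjusted p = 0.0383), and at 93.3, 99.4 and 88.5 in FL_WT and 63.4, 60.2 and 68.2 in FL_KO (-0.56, SE 0.0830, adjusted p = 0.00228).

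With 3 mice a group the ground calls in Kid were not all stable. The Tkt call on the ground was lost in 9 of 12 fits that each left out 1 mouse, with log2 fold changes of -0.45 to -0.29 (adjusted p = 0.0195 to 0.170), and with only the ground groups in the fit (adjusted p = 0.0970). The losses came without GC_WT mouse 06 (adjusted p = 0.136), 07 (0.0691) or 10 (0.163), GC_KO mouse 11 (0.115) or 12 (0.170), FL_KO mouse 02 (0.0552) and FL_WT mouse 05 (0.0597), 08 (0.0620) or 10 (0.0502). The Me1 call on the ground was lost without GC_WT mouse 06 (adjusted p = 0.0963) or 10 (0.0706) and without GC_KO mouse 11 (0.0687) or 12 (0.0675). The calls of G6pdx and Pgd in Kid, and all 4 after flight, held in all 12 such fits.

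In Liv, Me1 showed the largest genotype change of any of the 8 enzymes in any tissue. It ranged from 67.7 to 103 TPM in GC_WT (median 77.4) and from 33.2 to 53.2 in GC_KO (median 40.3), and from 64.2 to 87.3 in FL_WT (median 79.3) against 44.0, 28.3, 41.9, 40.4 and 43.5 in FL_KO. The genotypes did not overlap, and Me1 was lower by a log2 fold change of -0.94 (SE 0.125, edgeR adjusted p = 2.63e-05) on the ground and -1.08 (SE 0.133, adjusted p = 1.06e-05) after flight. Gm7329 stood at 102 in GC_WT, 57.5 in GC_KO, 98.1 in FL_WT and 49.2 TPM in FL_KO. Tkt ranged from 51.8 to 63.4 TPM in GC_WT (median 58.5) and from 38.0 to 50.5 in GC_KO (median 45.6), and from 46.8 to 62.4 in FL_WT (median 54.3). It was lower without overlap in both conditions, by -0.39 (SE 0.0908, edgeR adjusted p = 0.0164) and -0.70 (SE 0.0964, adjusted p = 5.08e-05). In all, 3 of 8 enzymes were called in Liv on the ground, where 2.64% of all genes were called, and 2 of 8 after flight, where 3.65% were called. G6pdx and Pgd, lower in Kid, were at 0.16 and 0.16 in Liv on the ground (adjusted p = 0.773 and 0.603).

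Idh1 went the other way. In Cbr it ranged from 25.7 to 30.9 TPM in GC_WT (median 28.4) and from 31.4 to 39.9 in GC_KO (median 35.4), and from 23.7 to 29.6 in FL_WT (median 28.1) against 32.6 to 36.5 in FL_KO (median 35.6). Each Nrf2-KO mouse was above each WT mouse of its condition. Idh1 in Cbr was higher by 0.33 (SE 0.0636, edgeR adjusted p = 0.00479) on the ground and by 0.38 (SE 0.0668, adjusted p = 0.00231) after flight, where 0.836% and 0.531% of all genes were called and no other enzyme was called by edgeR. DESeq2 also called Me1 lower in Cbr after flight (-0.26, adjusted p = 0.0185). Idh1 was also higher in Liv on the ground (0.27, SE 0.0698, edgeR adjusted p = 0.0360) with overlap, from 177 to 237 TPM in GC_WT and from 221 to 301 in GC_KO. In eWAT after flight it ranged from 114 to 163 TPM in FL_WT and stood at 164, 178, 221, 223 and 225 in FL_KO (0.58, SE 0.132, edgeR adjusted p = 0.0295). That call was lost without FL_KO mouse 09 (adjusted p = 0.104), 11 (0.0855) or 12 (0.0839), and 1.06% of all genes were called there, against 2.74% on the ground, where no enzyme was called.

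The remaining genotype calls were single. Pgd in iBAT was higher in GC_KO than in GC_WT (0.60, SE 0.152, edgeR adjusted p = 0.0373) with overlap, where 2.14% of all genes were called, and it was not called without the 3 muscle libraries (0.60, adjusted p = 0.0564). After flight edgeR called no enzyme in iBAT, where 1.5% of all genes were called. Me1 there was called lower by DESeq2 (-0.42, adjusted p = 0.0189), with flight mouse 04 included (-0.45, adjusted p = 0.0266) and with only the flown groups in the fit (-0.42, adjusted p = 0.0400). Taldo1 in Thy ranged from 87.2 to 98.7 TPM in FL_WT and from 63.0 to 79.6 in FL_KO (-0.27, SE 0.0616, edgeR adjusted p = 0.0179), where 2.64% of all genes were called. The call was lost without FL_KO mouse 01 (adjusted p = 0.0849) or 12 (0.0713). With flight mouse 04 included, which stood at 92.1 TPM, it was lost too (-0.22, edgeR adjusted p = 0.0818). With limma on log2(TPM + 1) it was also not called (-0.35, adjusted p = 0.0534). On the ground no enzyme was called in Thy, where 3.81% of all genes were called.

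**Figure D4:**
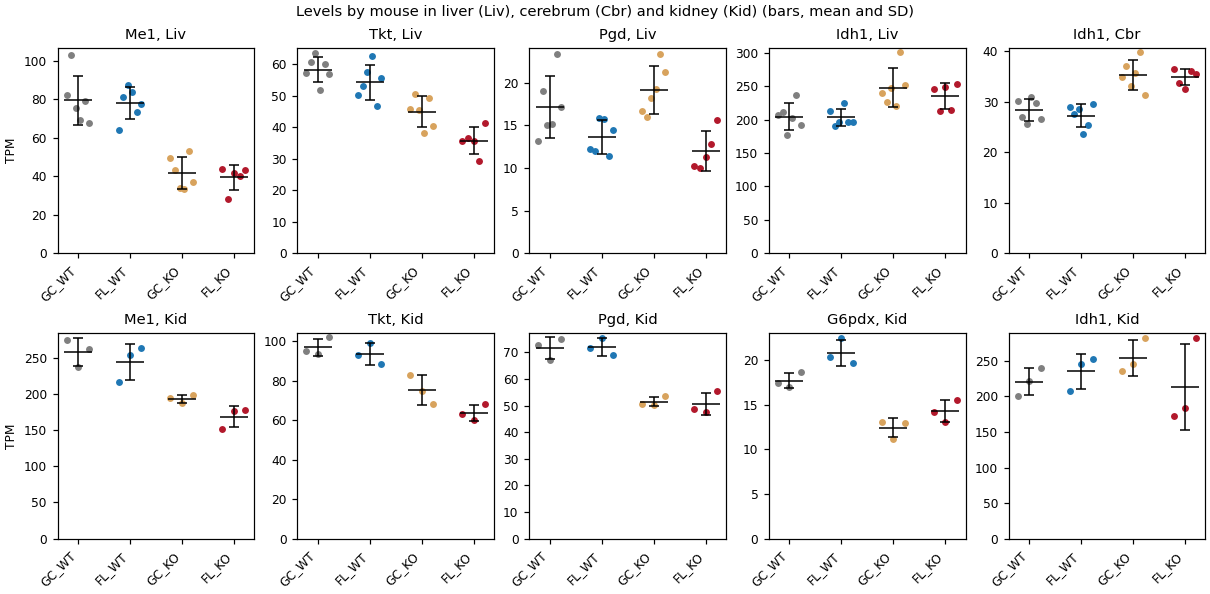
TPM of enzymes that differed between genotypes in Liv, Kid and Cbr in the 4 groups, where points are mice and bars are the mean and SD. Nrf2-KO mice lie below WT mice of the same condition without overlap for Me1 and Tkt in Liv and for Me1, G6pdx, Pgd and Tkt in Kid, and above them for Idh1 in Cbr.

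Genes next to these enzymes were followed as lists. Of 165 pairs of tissue and other pentose phosphate or NADPH genes, 6 rose and 15 fell with flight in WT mice, and 7 rose and 15 fell in Nrf2-KO mice. By tissue, calls in WT mice were 9 of 19 in eWAT (13.4% of all genes), 5 of 18 in iBAT (19.2%), 5 of 18 in Thy (22.8%) and 2 of 17 in Liv (3.45%). In Nrf2-KO mice they were 7 of 19 in eWAT (7.71% of all genes), 10 of 18 in iBAT (33.5%), 3 of 18 in Thy (38.2%) and 2 of 17 in Liv (3.34%). Aldh1l1, which makes NADPH from formyl-tetrahydrofolate, fell in eWAT (-0.97, edgeR adjusted p = 0.000102) and Liv (-0.59, adjusted p = 0.000688) of WT mice, and in Liv (-0.77, adjusted p = 6.89e-05) and iBAT (-0.78, adjusted p = 0.000324) of Nrf2-KO mice. Rpe, the epimerase that works beside Rpia, fell in iBAT of Nrf2-KO mice (-0.63, edgeR adjusted p = 1.42e-05). Shpk, sedoheptulokinase, fell in eWAT of WT mice (-0.50, edgeR adjusted p = 0.000625). Prps2, which turns ribose 5-phosphate into the precursor of nucleotides, rose in eWAT of WT mice (0.49, edgeR adjusted p = 0.000891) and fell in Thy of Nrf2-KO mice (-0.43, adjusted p = 5.29e-05).

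Genes of fatty acid synthesis, which consumes cytosolic NADPH, also fell in adipose tissue. Of 10 genes tested per tissue, 9 fell in iBAT and 8 in eWAT of WT mice and 10 in each of Nrf2-KO mice, where 19.2%, 13.4%, 33.5% and 7.71% of all genes were called. In Liv, 2 of 10 fell in WT and 8 of 10 in Nrf2-KO mice (3.45% and 3.34% of all genes called). The interaction was not called for any gene of the list in any tissue (20 of 89 pairs had an unadjusted p under 0.05). In iBAT, Acly, ATP citrate lyase, was at -3.26 (edgeR adjusted p = 2.72e-07) in WT mice, Fasn, fatty acid synthase, at -2.56 (adjusted p = 2.15e-07), Acaca, acetyl-CoA carboxylase, at -2.26 (adjusted p = 9.84e-08) and Slc25a1, the citrate carrier, at -1.47 (adjusted p = 3.11e-07). In Nrf2-KO mice the 4 smallest p-values were those of Slc25a1 (-2.47), Acaca (-3.09), Acss2 (-2.44) and Fasn (-3.48). The medians of the list were -1.50 and -2.4 in iBAT and -0.91 and -1.07 in eWAT, against 0.02 and 0.04 and against -0.0039 and -0.01 over all genes tested. Between GC_KO and GC_WT, 11 of 89 pairs were higher and 1 was lower, with 5 of 10 higher in iBAT (2.14% of all genes called). Between FL_KO and FL_WT, 0 of 89 were higher and 1 was lower, namely Scd1 in Liv (-1.07, edgeR adjusted p = 0.0102, 3.65% of all genes called).

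A list of 9 genes held enzymes that reduce glutathione, thioredoxin, peroxiredoxin, quinones or carbonyls (Gsr, Txnrd1, Srxn1, Nqo1, Cbr1 and Cbr3) and genes of glutathione synthesis and cystine uptake (Gclc, Gclm and Slc7a11). Of 76 pairs, 11 were lower and 0 higher on the ground without Nrf2, and 10 lower and 0 higher after flight, while 65 and 66 were not called. The ground calls were 5 of 9 in eWAT (2.74% of all genes called), 4 of 8 in Kid (1.61%) and 2 of 7 in Liv (2.64%). After flight they were 5 of 8 in Kid (1.83% of all genes called), 2 of 7 in Liv (3.65%), 2 of 9 in eWAT (1.06%) and 1 of 9 in Thy (2.64%). Nqo1 was at -1.79 in Kid (edgeR adjusted p = 5.69e-06) and -2.05 in Liv (adjusted p = 1.42e-05) on the ground, and at -1.88 in both after flight. Txnrd1, thioredoxin reductase, was at -0.64 in Kid on the ground (adjusted p = 0.00190). Gclc and Gclm are the subunits of the enzyme that starts glutathione synthesis, and Gclc was at -0.43 in eWAT on the ground (adjusted p = 0.000256) and Gclm at -0.55 in Kid after flight (adjusted p = 0.00107). With flight, 4 pairs were higher and 3 lower in WT mice, and 4 higher and 4 lower in Nrf2-KO mice. All but 1 of these calls were in iBAT and Thy. There flight called 19.2% and 22.8% of all genes in WT mice and 33.5% and 38.2% in Nrf2-KO mice. Slc7a11, the cystine carrier, fell in Thy (-0.53, edgeR adjusted p = 0.000887, in WT and -0.89 in Nrf2-KO mice). In iBAT of both genotypes edgeR called Gclm lower (-0.36 and -0.53) and Gclc higher (0.30 and 0.41). On the TPM scale Gclm in iBAT did not fall, with means of 22.7 in GC_WT, 23.3 in FL_WT, 22.9 in GC_KO and 23.2 in FL_KO.

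Among the other NADPH genes, 10 pairs were higher in GC_KO than in GC_WT and 5 lower, and 7 higher and 3 lower after flight, where 0.198% to 3.81% and 0.203% to 3.65% of all genes were called by tissue. All of the higher calls belonged to Nnt, the mitochondrial transhydrogenase, part of which is deleted in the C57BL/6J substrain and which the table lists under 2 Ensembl identifiers. The first of them stood at 7.54 TPM in GC_WT and 38.5 in GC_KO in Kid, and at 7.05 in FL_WT and 43.3 in FL_KO. In Liv it stood at 0.902 in GC_WT, 16.1 in GC_KO, 4.34 in FL_WT and 31.2 TPM in FL_KO. For this first identifier the log2 fold change was 2.34 in Kid (edgeR adjusted p = 0.000164) and 4.18 in Liv (adjusted p = 7.69e-06) on the ground. The second identifier moved less. In Kid it stood at 38.9 TPM in GC_WT, 45.3 in GC_KO, 40.8 in FL_WT and 42.8 in FL_KO. In Liv it stood at 20.4 TPM in GC_WT, 36.3 in GC_KO, 26.2 in FL_WT and 54.3 in FL_KO. Its log2 fold change in Liv was 0.83 on the ground (edgeR adjusted p = 0.000120). Whether the genotypes differed in strain background beside Nrf2, and its part in the genotype calls of the enzymes, was not tested.

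Mouse numbers fell into ranges that went with the level of some enzymes. Mice numbered up to 06 and from 07 were present in every group of 8 tissues, and the levels were compared between these ranges over all groups after the pattern had been seen in the values. The labels give no reason for the numbering. Of the 72 pairs, 9 were called, 6 higher and 3 lower in mice from 07. The share of all genes called was 0.506% in TpB, 11.3% in Spl, 42% in Liv, 17.5% in eWAT, 27.7% in iBAT, 4.83% in Thy, 4.49% in Kid and 3.82% in Cbr, and 0% in MdB, where GC_WT alone held both ranges.

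Rpia, the isomerase, showed the largest such difference. In iBAT it ranged from 5.89 to 6.48 TPM in GC_WT mice up to 06 and from 12.1 to 15.5 in those from 07, and from 7.26 to 8.52 against 8.60 to 11.3 in FL_WT. In Nrf2-KO mice it ranged from 9.78 to 10.3 against 18.2 to 23.7 on the ground and from 5.97 to 7.76 against 12.0 to 14.3 after flight. The ranges did not overlap in any of the 4 groups, and the difference was 0.74 on the log2 scale (edgeR adjusted p = 7.41e-06) in iBAT and 0.50 (adjusted p = 7.83e-05) in eWAT. Pgd in iBAT was higher from 07 by 0.35 (edgeR adjusted p = 0.00372), with 137 to 191 against 194 to 286 TPM in GC_WT, 90.9 to 100 against 90.1 to 107 in FL_WT, 208 to 253 against 296 to 355 in GC_KO and 51.3 to 57.1 against 91.5 to 94.0 in FL_KO. Idh1 was higher by 0.33 in eWAT (adjusted p = 0.000602), 0.16 in iBAT (adjusted p = 0.017) and 0.27 in Kid (adjusted p = 0.0281). Pgls in Liv (-0.19, adjusted p = 0.00459), Tkt in Liv (-0.16, adjusted p = 0.0239) and Me1 in Spl (-0.23, adjusted p = 0.0425) were lower.

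In iBAT the means of Me1, G6pdx, Pgd, Taldo1 and Tkt were lower in flown mice within both ranges of both genotypes, and those of Idh1 were lower in 2 of these 4 comparisons. Idh1 went from 79.6 to 86.3 TPM in WT mice up to 06 and from 99.2 to 88.1 from 07, and from 90.3 to 76.8 and from 105 to 111 in Nrf2-KO mice. Me1 went from a mean of 206 TPM in GC_WT to 96.1 in FL_WT up to 06 and from 243 to 91.4 from 07, and from 238 to 63.1 and from 245 to 78.5 in Nrf2-KO mice. Tkt went from 907 to 488 and from 909 to 498 in WT mice and from 1144 to 521 and from 1174 to 412 in Nrf2-KO mice. Pgd went from 162 to 94.4 and from 235 to 95.9 in WT mice and from 233 to 54.2 and from 334 to 92.9 in Nrf2-KO mice. Rpia, called for flight in Nrf2-KO mice, went from 10.1 to 6.87 and from 20.2 to 13 there. With the range as a block none of the 44 calls was lost, and Rpia in iBAT was called between GC_KO and GC_WT (0.72, edgeR adjusted p = 0.00184), as were the interactions of Pgd and Taldo1 in iBAT given above. Rpia in Liv was called between GC_KO and GC_WT (0.65, adjusted p = 0.0355) and Pgd in Liv between FL_WT and GC_WT (-0.38, adjusted p = 0.0274).

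**Figure D5:**
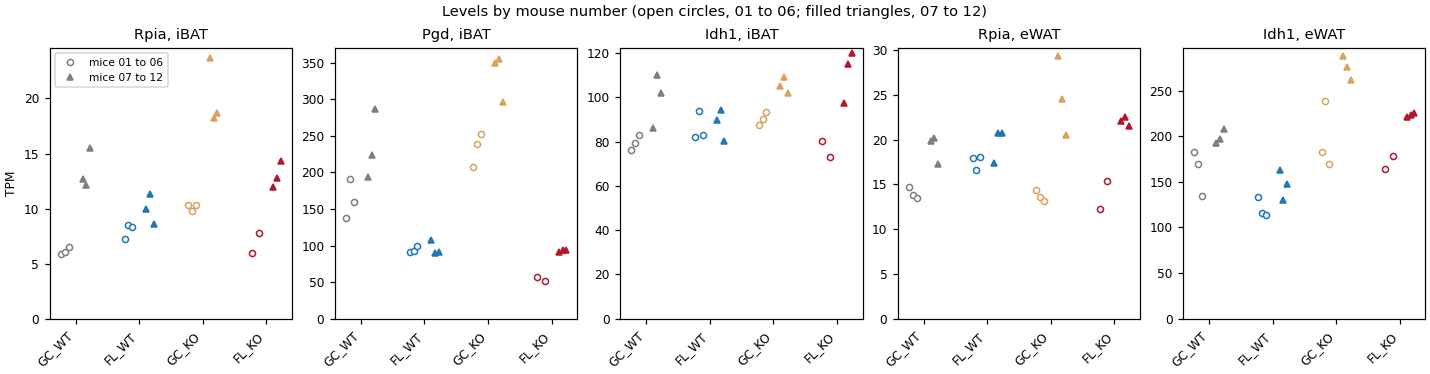
TPM of Rpia, Pgd and Idh1 in iBAT and eWAT by group, where open circles are mice up to 06 and filled triangles mice from 07. For Rpia in iBAT the mice from 07 lie above the mice up to 06 in all 4 groups, from 8.60 against 8.52 TPM in FL_WT to 18.2 against 10.3 TPM in GC_KO.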

How the data were processed

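RNA of 9 tissues was sequenced as single reads, which the authors mapped to mm10 with STAR 2.6.1 and quantified with RSEM 1.3.1. The deposited expected counts are RSEM estimates per gene, without normalization, in which reads that fit several genes are split between them. The deposited TPM values were used as levels. FPKM values, in 192 other columns, were left aside. Samples were grouped by the condition and genotype in the labels, and flight mouse 04 was left out.

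Expected counts were rounded and fitted with edgeR 4.0.16 under R 4.3.3, each tissue by itself (filterByExpr by group, TMM, quasi-likelihood test, the 4 groups together). Benjamini-Hochberg adjustment ran over all genes tested in a tissue, and standard errors were taken as the fold change over the root of F. The tests were repeated with DESeq2 1.42.0 and with limma 3.58.1 on log2(TPM + 1) and log2(TPM + 0.1) of genes with a mean of at least 5 TPM. Other repeats used RLE factors, no filter, flight mouse 04 included, only the groups compared, a block for the mouse number, in TpB for the library set, the muscle level as a covariate in iBAT, Thy without GC_KO mouse 04, each mouse of groups up to 5 left out in turn (58 fits), and for levels CPM with TMM factors. The mouse number range as a block and iBAT without 3 muscle libraries were chosen after seeing the data. The fits were tested on simulated data.

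Flight and ground mice of a number are different animals. The correlation of their deviations from the group means was checked, and only Nrf2-KO mice in Liv had all pairs over 0.1 (0.222 to 0.369, 5 pairs), so that blocked values are given there where a call changed. Members and lists were chosen with earlier results of these data known. All 8 members are named, with up to 4 genes per list and contrast by the smallest adjusted p, and 2 genes per member by likeness over tissues. Intervals are 95% intervals of the fitted change. Promoters came from RefSeq on GRCm38.p6 and coordinates from GENCODE on GRCm38.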

Additional observations from a re-analysis of the deposited data

Results flagged for a closer look

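In 9 of 224 groups of 4 to 10 mice, 1 mouse lay beyond Dixon's 95% limit for its group, where chance flags about 1 in 20. Me1 in Liv was lowest in FL_KO mouse 02, at 28.3 TPM against 40.4 in the nearest mouse. G6pdx was highest in Thy of FL_KO mouse 11 (15.9 against 14.5 TPM) and in Cbr of GC_WT mouse 10 (31.6 against 28.9 TPM). Pgls was highest in iBAT of FL_WT mouse 08 (146 against 125 TPM), one of the libraries with muscle transcripts, and in Thy of GC_WT mouse 08 (70.3 against 58.6 TPM). Taldo1 was highest in Liv of GC_WT mouse 05 (88.7 against 78.8 TPM). Tkt was highest in TpB of FL_KO mouse 09 (185 against 135 TPM), in Spl of GC_WT mouse 10 (146 against 137 TPM) and in eWAT of GC_WT mouse 05 (545 against 404 TPM). Without FL_KO mouse 02 the genotype call of Me1 in Liv after flight held, and its log2 fold changes without 1 FL_KO mouse ranged from -1.14 to -1.0.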

How the results depend on the processing

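Of the 44 calls, DESeq2 kept 43, RLE factors and the number range as a block 44, and the fits without a filter, with flight mouse 04 included or with only the groups compared 40 each. The library set was fitted in TpB alone, where no enzyme was called, so that it could not lose a call. The muscle level was fitted in iBAT alone and the fit without GC_KO mouse 04 in Thy alone. Neither lost a call of its own tissue. Limma on TPM lost 9 (pseudocount 1) or 8 (0.1) and turned 2. With limma, 5 pairs were called higher in each flight comparison and 9 lower between FL_KO and GC_KO, for both pseudocounts. On that scale Taldo1 in Thy of WT mice turned from -0.18 to 0.05, and G6pdx in Thy of Nrf2-KO mice from -0.15 to 0.10 and 0.11. As ratios of mean levels, Taldo1 in Thy of WT mice was 0.05 on TPM and -0.18 on CPM with TMM factors, G6pdx in Thy of Nrf2-KO mice 0.09 and -0.15, and Taldo1 in Thy of Nrf2-KO mice -0.04 and, with flight mouse 04, 0.03. The cause of the difference between these scales was not tested. Pairs higher between FL_KO and FL_WT numbered 1 with flight mouse 04 included, and 1 to 2 without a mouse, being 1 without FL_KO mouse 09, 11 or 12. With the number range as a block, 5 pairs were higher between GC_KO and GC_WT and 2 interactions were lower, and DESeq2 called 3 interactions lower. With the replicate block (mouse number), which could not be fitted for genotype, flight called 1 higher and 10 lower in WT mice, 1 higher and 14 lower in Nrf2-KO mice, and 0 interactions, with Me1 in eWAT lost (-0.50, adjusted p = 0.0914) and no other of 26 calls. The 2 to 3 mice per group in MdB and 3 in Kid limit what could be called there. Pairs called by alternatives alone also included Me1 in eWAT for flight in WT mice (DESeq2, -0.44, adjusted p = 0.0417) and between FL_KO and FL_WT (only the groups compared, -0.46, 0.0421), Pgd in Liv for flight in WT mice (DESeq2, -0.39, 0.0304), Rpia in Liv (DESeq2, 0.65, 0.0299) and Tkt in iBAT (only the groups compared, 0.44, 0.0488) between GC_KO and GC_WT, and G6pdx in Thy between FL_KO and FL_WT (without GC_KO mouse 04, -0.19, 0.0432, and with the number range as a block, 0.0486).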

Other observations

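Genes of the circadian clock, chosen after their values had been seen, differed between the mouse number ranges in Liv, eWAT and iBAT. In mice from 07 against mice up to 06, Npas2 differed by 5.49 in Liv (edgeR adjusted p = 2.42e-07), 2.36 in eWAT and 3.85 in iBAT on the log2 scale, and Arntl by 1.3, 2.6 and 1.48. Dbp differed by -2.27, -1.85 and -1.65 and Ciart by -3.07, -1.65 and -1.77. Both ranges were present in each group of these tissues. The relation of these genes to the levels of Rpia, Pgd and Idh1 was not tested.

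Flight mouse 04, left out of the comparisons, was sequenced in 8 tissues, which gives 64 pairs with the 8 enzymes. Its level lay inside the range of the other FL_KO mice in 33 pairs, above it in 11 and below it in 20. In iBAT it stood at 55.9 TPM for Me1 against 60.2 to 80.7 in the others, at 263 against 282 to 309 for Taldo1 and at 63.6 against 73.1 to 120 for Idh1. In eWAT Taldo1 stood at 311 against 353 to 394 TPM, and in Thy it stood above the others, at 92.1 against 63.0 to 79.6 TPM.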
